A study of Mus musculus with 28 samples.

Results

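The histone genes measured in mouse hippocampus are described here: 45 of the 19938 genes that had a transcript cluster of their own on the array. They were chosen by name, as every gene whose symbol begins like that of an H1, H2A, H2B, H3 or H4 histone. Its array row also had to carry that 1 symbol. Names and not values set the choice, but earlier results of these data were known when it was made. Where a gene had several such rows, the row with the highest mean stood for it. The genes were sorted into classes by symbol, and whether each depends on replication in this tissue was not measured. There were 24 replication-dependent core histones (4 H2A, 10 H2B, 3 H3 and 7 H4 genes, with the pseudogene H2bu1-ps counted among the H2B genes). The others were 4 linker histones of the main cluster (H1f1, H1f2, H1f3 and H1f5), the replacement linker histone H1f10, 5 replacement variants (H2aj, H2ax, H2az1, H2az2 and H3f3a) and 11 histones whose expression is normally restricted to germ cells. Histone genes are near copies of each other, and 47 further rows carried several symbols of which at least 1 was a histone. These rows cannot be given to 1 gene and are reported apart.

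The animals were wild-type and cbp+/- littermate females of a C57/DBA F1 hybrid background, 3 months old. The cbp gene (Crebbp) encodes CREB-binding protein, a coactivator that acetylates histones. For each genotype there were 5 standard-cage control arrays (replicates 1 and 2 from naive mice, replicates 3 to 5 from mice given vehicle), and 3 arrays each for trichostatin A (TSA) in the standard cage, vehicle with novelty, and TSA with novelty. TSA, an inhibitor of histone deacetylases, was given intraperitoneally (2.4 mg/kg), 75 min before the tissue was collected. Novelty was 1 h in a box with tubing and toys, begun 15 min after the injection. Every array held pooled RNA of 3 to 4 mice, so errors are those of pools and not of single animals, and all values are log2 expression levels of whole hippocampus, in which fewer cells of a type and less RNA per cell cannot be told apart.

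Replication-dependent histones package newly copied DNA. Their genes lie in clusters, have no introns, and give transcripts that end in a stem-loop in place of a poly(A) tail and that are made and destroyed with S phase. Replacement variants such as H2A.Z and H3.3 are made from polyadenylated transcripts outside S phase and are therefore the main histones deposited in neurons, which no longer divide. Linker H1 proteins bind the DNA between nucleosomes, with a cluster-encoded group and a replacement group of their own. Histone deacetylase inhibitors block enzymes that take acetyl groups off the tails of the proteins these genes encode. They change transcription of some of the genes as well.

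The promoters of 39 of the 45 genes were found in the RefSeq promoter set for GRCm38.p6, and 22 of these lie on chromosome 13, which carries the main histone cluster. The 250 bases before the start site are shown for 4 genes on which the results below turn. H2aj was called higher with TSA, and H1f5 only with the array sets described below as a block. The H4 genes H4c4 and H4c6 had the means that differed most between sets of arrays. The window of H2aj lies at chr6:136807998-136808247 on the plus strand, H1f5 at chr13:21780626-21780875 on the minus strand, H4c4 at chr13:23581318-23581567 on the plus strand and H4c6 at chr13:23551669-23551918 on the minus strand. Each is written 5′ to 3′ along its gene, in lower case, and capitals mark 5 motifs searched on both strands. CCAAT is the CCAAT box and TATAAA the TATA box of many promoters. The octamer of H2A and H2B promoters is ATTTGCAT. The H1 box of linker histone promoters is AAACACA, and GGTCCG is a stretch of the H4-specific element.
H2aj: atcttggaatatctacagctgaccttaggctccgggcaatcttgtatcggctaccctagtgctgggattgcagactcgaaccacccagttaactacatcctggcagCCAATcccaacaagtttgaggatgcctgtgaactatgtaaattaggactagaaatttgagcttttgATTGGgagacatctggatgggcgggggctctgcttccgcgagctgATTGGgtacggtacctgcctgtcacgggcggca
H1f5: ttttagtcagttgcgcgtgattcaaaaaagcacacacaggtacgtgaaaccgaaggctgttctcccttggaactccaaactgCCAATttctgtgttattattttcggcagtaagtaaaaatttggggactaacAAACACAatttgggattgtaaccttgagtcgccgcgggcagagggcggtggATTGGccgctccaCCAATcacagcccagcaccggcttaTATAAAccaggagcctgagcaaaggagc
H4c4: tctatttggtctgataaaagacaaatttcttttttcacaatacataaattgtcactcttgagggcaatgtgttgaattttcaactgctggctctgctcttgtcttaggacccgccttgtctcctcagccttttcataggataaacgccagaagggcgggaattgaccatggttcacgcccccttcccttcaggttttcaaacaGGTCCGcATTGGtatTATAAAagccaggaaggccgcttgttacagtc
H4c6: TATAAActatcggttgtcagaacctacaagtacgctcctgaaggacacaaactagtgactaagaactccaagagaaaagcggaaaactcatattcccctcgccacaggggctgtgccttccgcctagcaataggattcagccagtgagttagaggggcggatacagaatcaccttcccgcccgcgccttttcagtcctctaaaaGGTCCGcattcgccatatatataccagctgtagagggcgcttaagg

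The letters differ along the classes. GGTCCG was found in 6 of 6 H4 core windows (300 bases, reaching 50 bases past the start) and in 8.25% of all 32851 promoter windows of that length. ATTTGCAT was found in 3 of 4 H2A and 4 of 7 H2B core windows against 1.74% of all windows, and AAACACA in 3 of 4 cluster H1 windows against 7.18%. TATAAA was present in 57.9% of the 19 core windows and in 0 of 4 replacement variant windows, with 13.6% over all windows. CCAAT was present in 78.9% of core windows, in all 4 cluster H1 and all 4 variant windows, and in 37.4% of all windows. H2aj, with 3 CCAAT matches and no other, thus carries none of the letters of the replication-dependent classes apart from CCAAT, while H1f5 holds 3 CCAAT matches with an H1 box and a TATA box. On chromosome 6 the neighbouring gene of H2aj is the H4 gene H4f16, on the opposite strand. A match is a description of the letters and not of binding.

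Of the 45 genes, 21 had a mean above 5.54, the median of all row means, among them 12 of 24 core genes, 3 of 4 cluster linkers, H1f10, 4 of 5 replacement variants and 1 of the 11 germ-cell histones (H2ac1). In the tissue, all 17 measured markers of hippocampal neurons (among them Prox1 of the dentate gyrus and Wfs1 and Fibcd1 of CA1) lay above that median as well. Crebbp itself was not called between the genotypes, with levels of 8.68 to 9.70 (wild type) and 8.97 to 9.77 (cbp+/-). It was higher in cbp+/- by 0.21 ± 0.12 (log2, estimate ± SE, limma, adjusted p = 1). With the array sets described below as a block, the difference was 0.21 ± 0.05 (limma, adjusted p = 0.066). The position of its probes relative to the disruption is unknown here. The arrays also fell into 4 sets that no label names and that were found in the values themselves: the 4 naive arrays formed set 1, while vehicle controls 3, 4 and 5 fell with replicates 1, 2 and 3 of the TSA and novelty groups into sets 2, 3 and 4, so that all but the naive arrays are spread evenly over 3 sets. Each comparison is therefore given from the fit without the sets and, where it changes a call, with array set as a block.

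The replication-dependent histones varied more between array sets than between the 8 groups. The sets were found in these same values, and since the groups hold naive and vehicle controls together while set 1 is the naive arrays, the step between set 1 and the rest cannot be told apart from injection. Over the 24 core genes the median share of variance lying between array sets was 60.7%, against 18% between the 8 groups. The 5 replacement variants, with medians of 58.3% and 16.9%, lay near the core genes in this. The same medians were 43.8% and 18.3% over all genes. They were 26.7% and 14.4% over the 11 germ-cell histones, and 42.3% and 39% over the 4 cluster linker histones. Expressed as the mean deviation from each gene's own mean, the core histones stood at -0.29 ± 0.04 in set 1 (SD, n = 4), -0.03 ± 0.06 in set 2, -0.10 ± 0.05 in set 3 and 0.27 ± 0.07 in set 4 (n = 8 each). The 4 arrays of set 1 and the 8 of set 4 overlapped with no array of another set. The replacement variants moved less, from -0.06 ± 0.02 in set 1 to 0.11 ± 0.11 in set 4. H1f10 moved the other way, from 0.31 ± 0.11 in set 1 to -0.11 ± 0.17 in set 4.

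**Figure D1:**
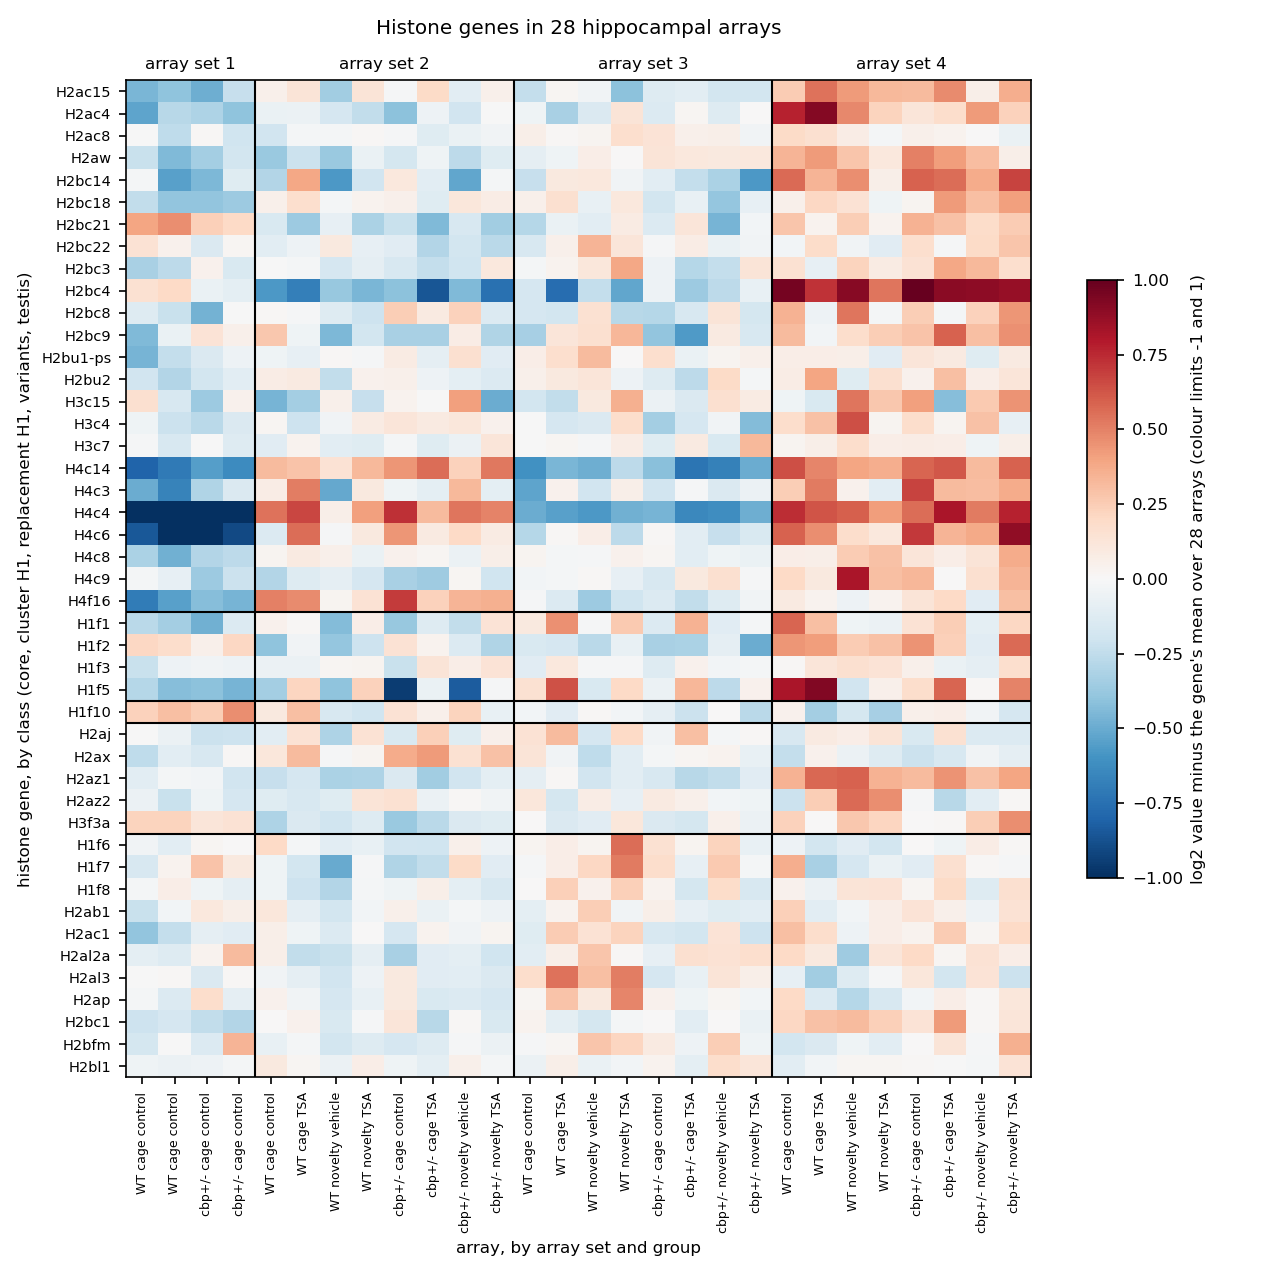
Each row is 1 of the 45 histone genes, by class, and each column 1 of the 28 arrays, by array set and group; colour gives the log2 value minus the gene's mean over all arrays, with the scale ending at -1 and 1. H4c4 and H4c6 are lowest in set 1, H2bc4 is highest in set 4, and among the germ-cell histones at the bottom the set bands are weaker, H2bc1 excepted (69% of its variance between sets).

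The widest ranges of set means were those of H4c4, H4c6 and the H2B gene H2bc4. H4c4, an H4 gene of the main cluster, had set means of 7.76, 9.35, 8.34 and 9.51, and 96.2% of its variance lay between sets. Its wild-type control arrays read 7.84 and 7.68 in the naive mice and 9.43, 8.39 and 9.62 in the vehicle mice, and its cbp+/- controls 7.77 and 7.74, then 9.61, 8.42 and 9.44. After TSA in the standard cage it read 9.55, 8.34 and 9.51 in wild type and 9.20, 8.24 and 9.70 in cbp+/-. The second of the 3 values, from set 3, is the low one in each trio, in treated and untreated mice alike.

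Novelty gave the same order for H4c4: 8.94, 8.31 and 9.48 with vehicle and 9.30, 8.40 and 9.30 with TSA in wild type, and 9.42, 8.26 and 9.40 with vehicle and 9.38, 8.40 and 9.65 with TSA in cbp+/-. H4c14, H4c6, H4c8 and H4f16 had 93.8%, 85.1%, 80.4% and 80.2% of their variance between sets, and H4c9 and H4c3 60.6% and 49.9%. The order of the sets was not the same for all core genes. H2bc8, H2bc14 and H2bc18 had the order of H4c4, with set 1 lowest, set 2 above set 3 and set 4 highest. H2bc4, an H2B gene of the main cluster, had set means of 8.31, 7.70, 7.96 and 9.12 (91.5% between sets), high in set 4 and lowest in set 2, where H4c4 was high. H2az1, the gene for the variant H2A.Z.1, had 89.7% between sets, with means of 9.09, 8.95, 9.03 and 9.59, whereas H2aj had 17.7% between sets and 71.4% between groups, the highest share between groups of the 45 genes.

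**Figure D2:**
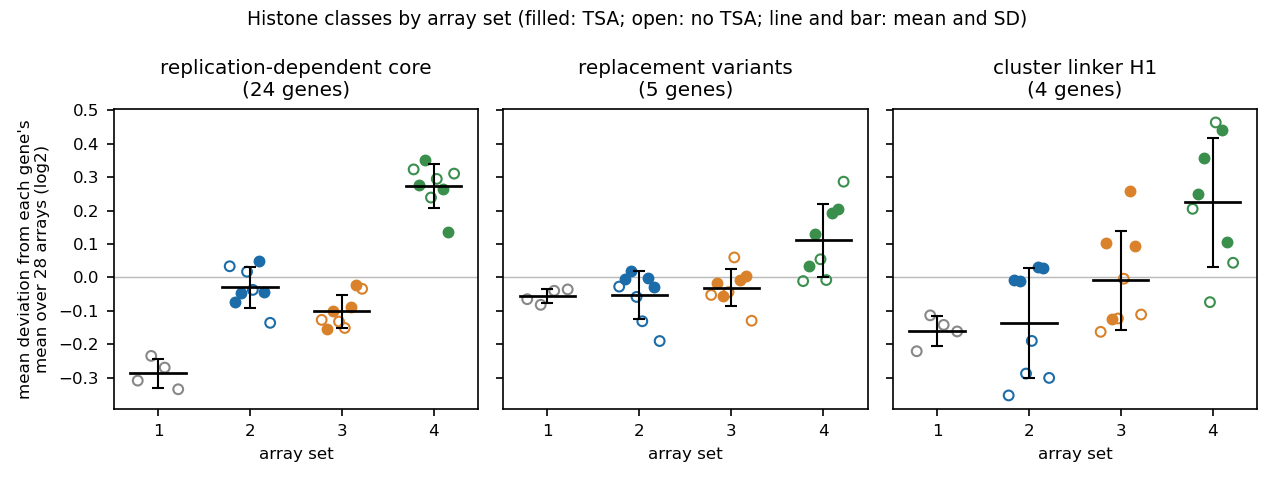
Points are arrays (filled with TSA, open without), lines and bars are the mean and SD of an array set, and the vertical axis is the mean deviation of a class from its genes' means (log2). Core histones run from -0.29 in set 1 to 0.27 in set 4; among the cluster H1 genes in set 2, the 4 TSA arrays lie above the 4 untreated arrays.

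The rows that match several H3, H4 or H2B cluster genes had the order of H4c4 as well. The mean level of the 10 H3 cluster rows was between 7.85 and 7.99 in the 4 naive arrays and between 8.11 and 9.76 elsewhere, and 88.2% to 90% of the variance of each row lay between sets. Of the 6 H4 cluster rows 5 had 94.7% to 95.2% between sets, and the 7 H2B cluster rows had 88.6% to 92.2%. The row shared by H1f4 and H2bc6 had 30.4% and the 14 H2al rows 17.5% to 45.2%. The 4 rows of H3f3a and Gm12657, with 76.3% to 81.3% between sets, were ordered otherwise, with set 1 and set 4 both above sets 2 and 3. The 2 rows of H3f3b and Gm6485, with 84% and 84.3% between sets, were lowest in set 3 and highest in set 4. These rows share probes with each other and are not independent measurements.

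The averaged TSA comparison asked what histone deacetylase inhibition did over both genotypes and both housings, as the mean of 4 differences between TSA and its untreated counterpart (12 arrays against 16). H2aj rose, by 0.24 ± 0.05 (limma, adjusted p = 0.00845), and was the only histone gene called of the 45. With array set as a block H2aj rose by 0.23 ± 0.04 (adjusted p = 0.00163), H1f5 rose by 0.47 ± 0.08 (adjusted p = 0.00116) and H2bc4 fell by 0.22 ± 0.06 (adjusted p = 0.0312). Among all genes 0.662% were called without the block (0.446% higher and 0.216% lower) and 4.51% with it (2.66% higher and 1.85% lower), beside which stand 1 and 3 of the 45 histone genes. Unadjusted p-values under 0.05 were reached by 6 and 9 of the 45, against 1740 and 3164 of all genes.

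H2aj encodes H2A.J, a mammalian replacement variant of H2A. In wild-type controls it read 7.02 and 6.97 (naive) and 6.92, 7.17 and 6.86 (vehicle), and after TSA 7.17, 7.34 and 7.12. With novelty, wild-type arrays read 6.72, 6.86 and 7.09 with vehicle and 7.17, 7.22 and 7.16 with TSA. The wild-type groups overlapped in the standard cage through vehicle control 4, and did not overlap with novelty.

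In cbp+/- mice H2aj read 6.81, 6.82, 6.88, 6.99 and 6.88 in controls and 7.26, 7.32 and 7.18 after TSA, with no overlap. With novelty the cbp+/- arrays read 6.90, 7.01 and 6.89 with vehicle and 7.08, 7.04 and 6.89 with TSA, which overlapped. The estimates for TSA were 0.22 ± 0.08 and 0.38 ± 0.08 in the standard cage (wild type, cbp+/-) and 0.29 ± 0.09 and 0.07 ± 0.09 with novelty. None of the 4 passed alone (lowest adjusted p = 0.654), and neither did the interaction of TSA with genotype (-0.03 ± 0.09) nor with novelty (-0.12 ± 0.09; both adjusted p = 1). Within array sets H2aj was higher with TSA in 11 of 12 pairs of arrays, by a median of 0.25. With vehicle controls only, and the naive arrays left out, the estimate was 0.23 with adjusted p = 0.0731.

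H1f5 encodes H1.5, a cluster linker histone. Its wild-type controls read 6.28 and 6.13 (naive) and 6.22, 6.71 and 7.38 (vehicle), against 6.78, 7.20 and 7.49 after TSA. With novelty it read 6.16, 6.41 and 6.37 with vehicle and 6.79, 6.76 and 6.61 with TSA in wild type. The cage groups overlapped, since vehicle control 5 was nearly as high as the highest TSA array, and the novelty groups did not.

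The cbp+/- controls read 6.15 and 6.10 (naive), then 5.61, 6.50 and 6.74 for H1f5, and 6.49, 6.90 and 7.14 after TSA. With novelty the cbp+/- arrays read 5.73, 6.30 and 6.57 with vehicle and 6.55, 6.61 and 7.06 with TSA, and both pairs of groups overlapped. Yet H1f5 was higher with TSA in 12 of 12 pairs within array sets, by 0.11 to 0.88. The mean of the pairs was 0.72 in set 2, 0.39 in set 3 and 0.31 in set 4. Without the block its difference of 0.55 ± 0.14 had an adjusted p of 0.0688, and the call appeared without vehicle control 5 of wild type (0.0156) or of cbp+/- (0.0479).

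The other linker histones did not pass. H1f1, for H1.1, read 6.39, 6.32, 6.70, 6.76 and 7.24 in wild-type controls against 6.67, 7.12 and 6.96 after TSA, and 6.18, 6.52, 6.28, 6.52 and 6.80 against 6.53, 7.002 and 6.91 in cbp+/-. With novelty it read 6.23, 6.65 and 6.61 with vehicle against 6.72, 6.92 and 6.60 with TSA in wild type, and 6.41, 6.55 and 6.56 against 6.79, 6.64 and 6.86 in cbp+/-. Only the last pair of groups did not overlap. H1f1 differed by 0.28 ± 0.09 (limma, adjusted p = 0.232) and by 0.20 ± 0.07 with the block (0.0828), and was higher with TSA in 9 of 12 pairs. With 1 array left out under the block its adjusted p lay between 0.0197 and 0.187. It stayed uncalled in 25 of these 28 omissions and was called in the rest. H1f2 and H1f3 differed by 0.02 ± 0.12 and 0.09 ± 0.04. The replacement linker H1f10, which is made in non-dividing cells as well, differed by -0.17 ± 0.07 (adjusted p = 0.404) and was lower with TSA in 10 of 12 pairs, with group means between 7.33 ± 0.15 (wild type, novelty with TSA, n = 3) and 7.68 ± 0.21 (cbp+/- control, n = 5).

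Of the replacement variants, H2ax, for the H2A.X that is phosphorylated at DNA breaks, differed by 0.08 ± 0.07 with TSA, and H2az1 and H2az2, for both forms of H2A.Z, by 0.05 ± 0.12 and -0.00 ± 0.07. The 95% intervals were -0.08 to 0.23, -0.19 to 0.29 and -0.15 to 0.15. H3f3a, for H3.3, differed by -0.04 ± 0.08, but its row had a mean of only 3.66. Its 4 rows shared with Gm12657, with means from 8.66 to 9.29, differed by a median of -0.08, and none was called. The 2 rows shared by H3f3b and Gm6485, with means of 9.60 and 9.93, differed by a median of -0.05, with 0 called.

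**Figure D3:**
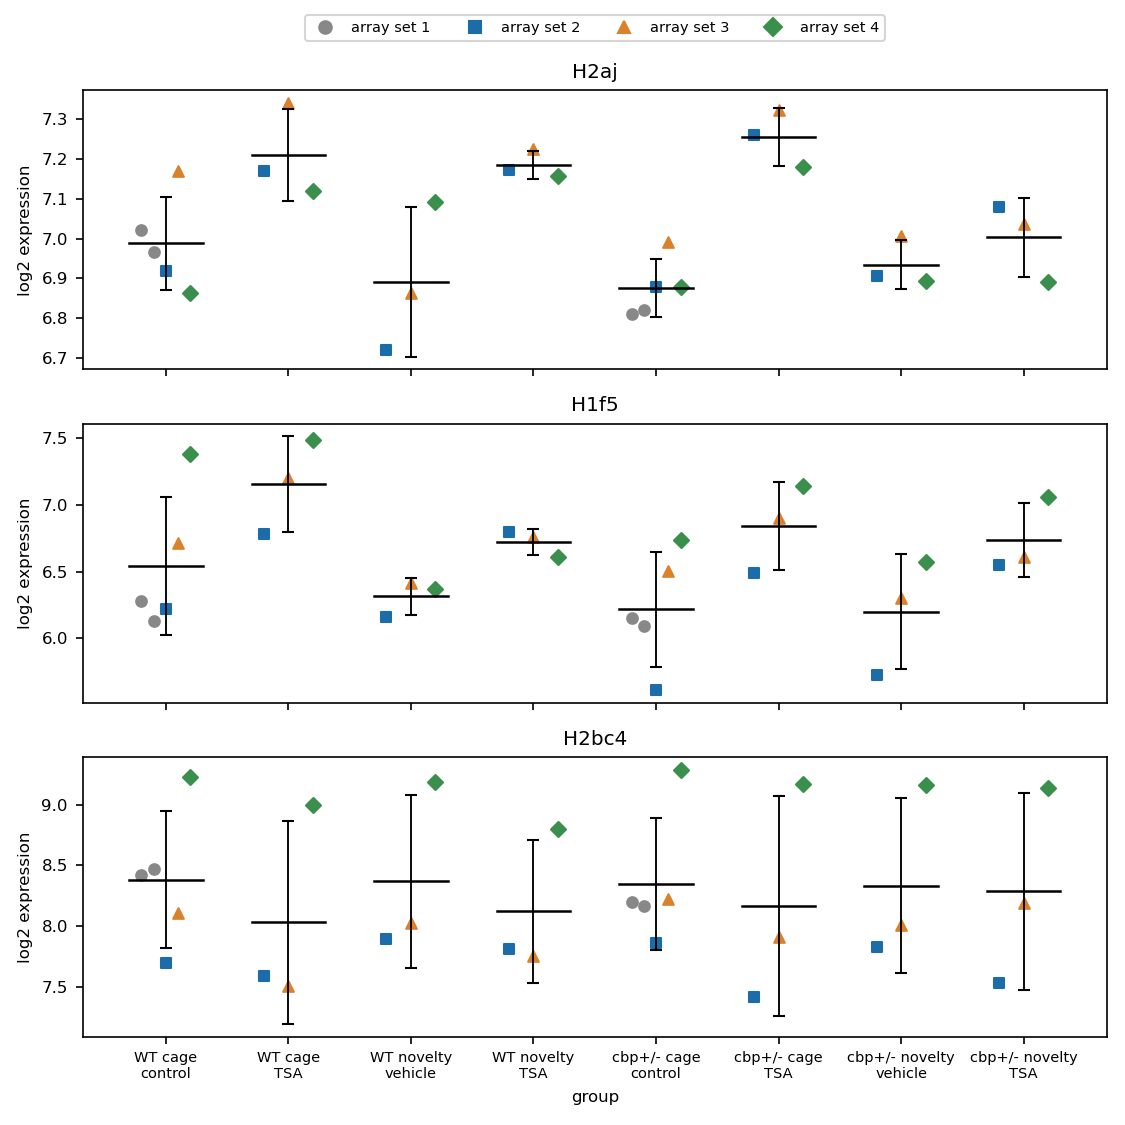
Log2 expression of H2aj, H1f5 and H2bc4 in the 8 groups; each point is an array, its shape the array set, and lines and bars are group mean and SD. H2aj has a higher mean in each TSA group, with overlap in wild type in the cage and in cbp+/- with novelty, H1f5 is higher with TSA within each array set of every pair of groups, and H2bc4 is ordered by set, with set 4 highest in all 8 groups.

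The 24 replication-dependent core histones gave 0 calls with TSA in the fit without a block (limma, 1 at an unadjusted p under 0.05) and 1, H2bc4, with the block. H2bc4 read 8.42, 8.47, 7.70, 8.10 and 9.22 in wild-type controls and 7.59, 7.51 and 8.99 after TSA, and 8.20, 8.17, 7.86, 8.22 and 9.28 in cbp+/- controls and 7.41, 7.91 and 9.17 after TSA. With novelty it read 7.89, 8.03 and 9.18 with vehicle and 7.81, 7.75 and 8.80 with TSA in wild type, and 7.83, 8.01 and 9.16 and then 7.53, 8.19 and 9.14 in cbp+/-. All treated and untreated groups overlapped, since the array of set 4 was the highest of each group, but H2bc4 was lower with TSA in 11 of 12 pairs within sets. Leaving out 1 array at a time moved its adjusted p with the block between 0.0101 and 0.0818, and 10 of the 28 omissions ended the call. These were, in wild type, replicate 2 of cage TSA, 1 of novelty with vehicle, and 2 and 3 of novelty with TSA, and in cbp+/- controls 3, 4 and 5 and replicate 1 of cage TSA, of novelty with vehicle and of novelty with TSA.

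By class, the median difference with TSA was 0.09 over the 24 core genes (16 of them positive), 0.18 over the 4 cluster linkers (4 positive), 0.05 over the 5 replacement variants (3 positive) and 0.01 over the 11 germ-cell histones (6 positive), beside 0.01 over all genes. With array set as a block the core median was 0.02, that of the cluster linkers 0.14 and that of the variants 0.03, beside 0.00 over all genes. Among the H4 genes, the estimates for H4c4 and H4c6 went from 0.30 ± 0.27 and 0.26 ± 0.19 without the block to 0.02 ± 0.05 and 0.02 ± 0.07 with it.

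The 10 rows shared by H3 cluster genes differed by a median of 0.42 with TSA without the block, with 0 called (limma, lowest adjusted p = 0.606). With the block the median was 0.21 and all 10 rows were positive, from 0.18 to 0.23. Of these 5 were called higher (limma, lowest adjusted p = 0.0297), beside 2.66% of all genes called higher with the block. The 5 calls are not independent, since the 10 rows share probes. Their mean in wild type was 7.98, 7.85, 8.97, 8.28 and 9.76 in controls against 9.28, 8.63 and 9.68 after TSA, and 8.82, 8.12 and 9.41 against 9.37, 8.56 and 9.32 with novelty. In cbp+/- it was 7.99, 7.96, 9.15, 8.34 and 9.39 against 9.28, 8.36 and 9.67, and 9.02, 8.11 and 9.02 against 9.25, 8.39 and 9.13. The groups overlapped throughout, and the mean was higher with TSA in 10 of 12 pairs within sets, by a median of 0.25. The 6 H4, 7 H2B and 2 H2A cluster rows gave 0 calls in either fit, with medians of 0.08, -0.01 and 0.11 with the block.

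Novelty, the second averaged comparison (12 arrays against 16), called 0 of the 45 histone genes by limma without or with the block, where 0.191% and 0.476% of all genes were called. At an unadjusted p under 0.05 there were 2 histone genes without the block and 8 with it, against 639 and 1637 of all genes. H3c15, a core H3 gene, had the smallest p without the block, at 0.30 ± 0.10 (limma, adjusted p = 0.725), and H3f3a with it, at 0.16 ± 0.04 (adjusted p = 0.0883). H3c15 read 4.29, 3.97, 3.67, 3.94 and 4.09 in wild-type controls and 3.77, 4.18, 4.16, 4.07 and 4.54 in cbp+/- controls, and with novelty and vehicle 4.18, 4.23 and 4.67 in wild type and 4.54, 4.29 and 4.39 in cbp+/-. With TSA it read 3.79, 3.88 and 3.97 in the cage and 3.90, 4.48 and 4.40 with novelty in wild type, and 4.13, 3.99 and 3.70 and then 3.64, 4.22 and 4.58 in cbp+/-. All 4 pairs of groups overlapped. The rows shared by cluster genes gave 0 calls (limma, lowest adjusted p = 0.077 with the block). Within sets the mean of the H2A rows was lower with novelty in 12 of 12 pairs, that of the H4 rows in 11 and that of the H3 rows in 10. The medians of these rows with the block were -0.15, -0.16 and -0.19, and without it -0.02, 0.06 and 0.02. H1f5 differed by -0.27 ± 0.08 with the block (adjusted p = 0.215) and was lower with novelty in 9 of 12 pairs within sets. The median difference of the core genes was 0.05 without the block and -0.02 with it, that of the cluster linkers -0.11 and -0.14, and that of the variants 0.00 and -0.02.

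Genotype, compared over 14 arrays of each, called 0 histone genes in either fit, beside 0% of all genes without the block and 0.662% with it. No histone gene had an unadjusted p under 0.05 without the block (limma), and 2 had one with it, H1f5 at -0.18 ± 0.08 (adjusted p = 0.346) and H4f16 at 0.10 ± 0.05 (adjusted p = 0.39). H1f5 was lower in cbp+/- in 10 of 12 pairs within sets. The median difference was -0.01 over the core genes, -0.05 over the cluster linkers and -0.05 over the variants, beside -0.01 over all genes. In controls alone (5 arrays against 5) H1f5 differed by -0.33 ± 0.22, with a 95% interval from -0.79 to 0.14.

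**Figure D4:**
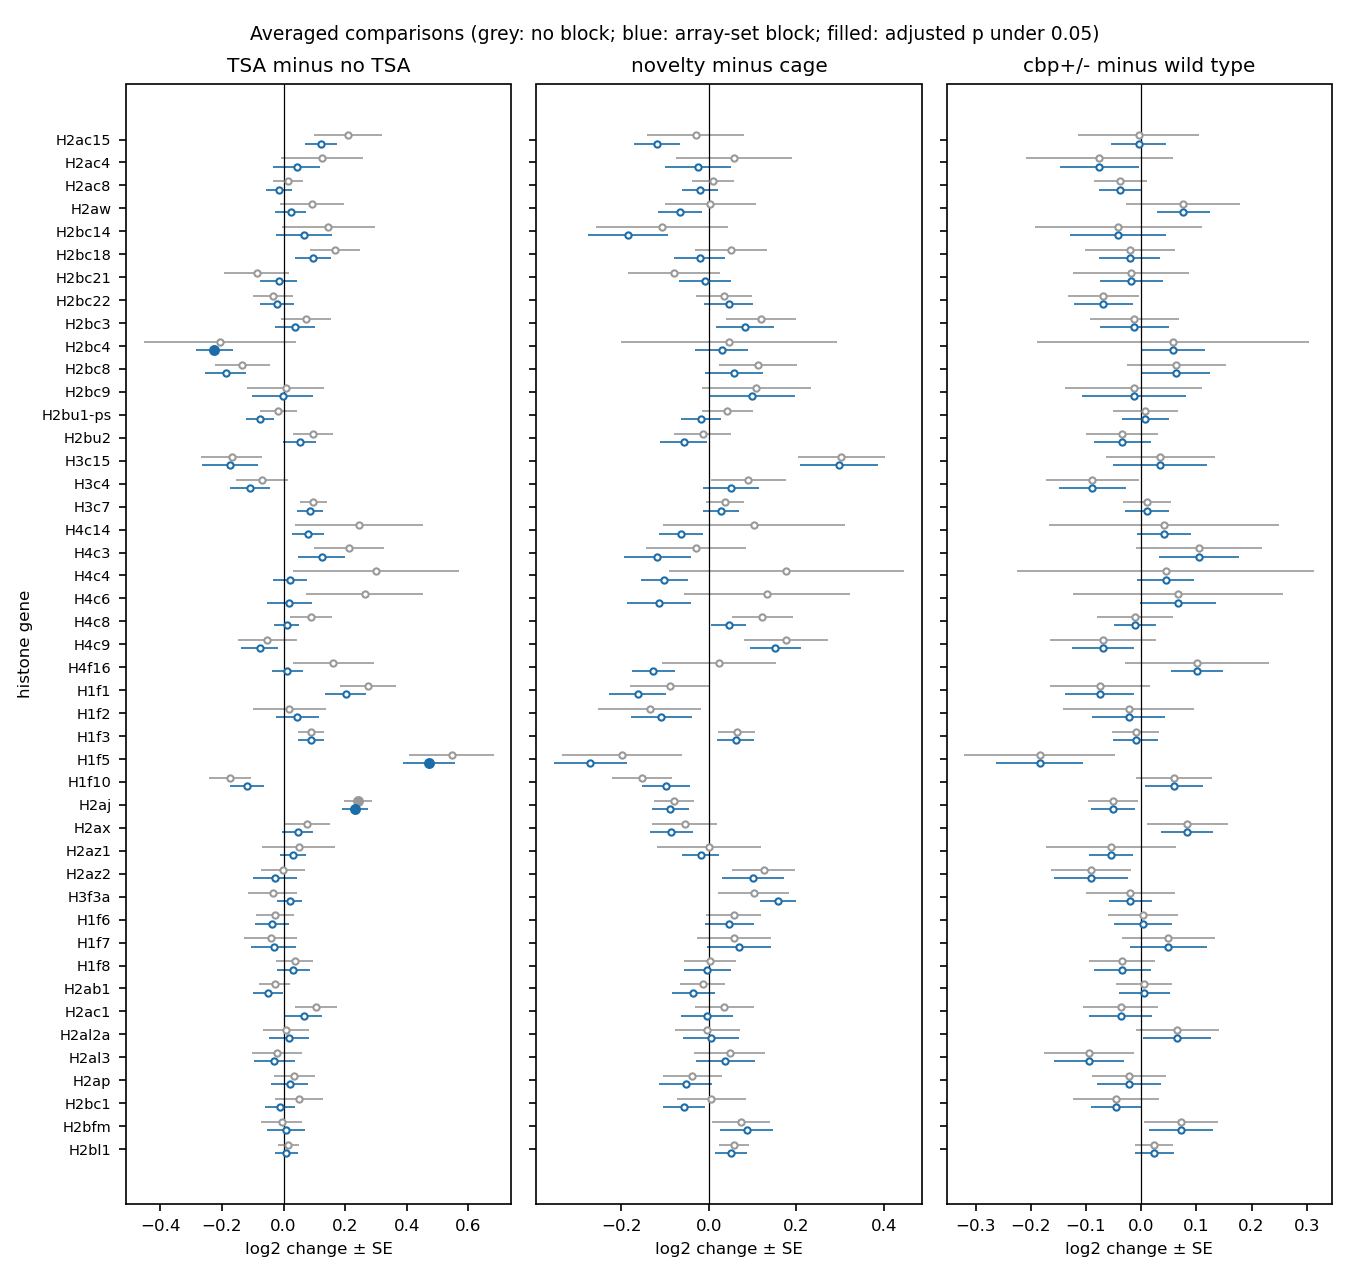
Log2 change with its SE for the 45 histone genes in the averaged TSA, novelty and genotype comparisons, without a block (grey) and with array set as a block (blue); filled points have an adjusted p under 0.05. Only H2aj, H1f5 and H2bc4 are filled, all in the TSA panel, and the SE of H4c4 goes from 0.27 without to 0.05 with the block.

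Taken by single background, TSA called 0 histone genes in each of its 4 comparisons by limma, with or without the block, and so did novelty with vehicle in each genotype, genotype in the controls and each of the 3 interactions. The 4 TSA comparisons had 4, 3, 1 and 1 histone genes at an unadjusted p under 0.05 without the block (wild type and cbp+/- in the cage, then with novelty), against 1030, 488, 649 and 355 of all genes. Among all genes, 0% were called in the 4 TSA comparisons without the block and 0.0401%, 0.0251%, 0.0702% and 0.0201% with it, in the same order. For novelty with vehicle, 1 histone gene of wild-type and 0 of cbp+/- mice reached an unadjusted p under 0.05 without the block, where 0.0351% and 0.0251% of all genes were called without the block and 0.11% and 0.0853% with it. Genotype in controls and the 3 interactions had 0 histone genes at an unadjusted p under 0.05 without the block, and 0% of all genes were called in these 4 comparisons. The comparisons of TSA and of novelty in the standard cage share the 5 control arrays of each genotype. A test of any difference among the 8 groups called 0 histone genes without the block (limma, 2 at an unadjusted p under 0.05), with 0.135% of all genes called, and H1f5 (adjusted p = 0.0103) and H2aj (0.0267) with it, with 1.5% of all genes called. That count was 1 under the block without replicate 3 of wild-type novelty with TSA, cbp+/- control 5, or replicate 1 or 2 of cbp+/- cage TSA.

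The vehicle controls (6 arrays) against the naive controls (4 arrays) called 5 of 45 histone genes, more than any other comparison fitted without a block, all higher in vehicle controls, where 2.41% of all genes were called, 1.08% higher and 1.32% lower. All 5 were core genes. H4c6 was higher by 1.23 ± 0.20 (limma, adjusted p = 0.00172), H4f16 by 0.75 ± 0.16 (0.0147), H4c8 by 0.39 ± 0.08 (0.0157), the pseudogene H2bu1-ps by 0.30 ± 0.08 (0.0417) and H4c4 by 1.39 ± 0.36 (0.0432).

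H4c6 read 5.84 and 5.57 in naive and 6.55, 6.40 and 7.27 in vehicle controls of wild type, and 5.52 and 5.78 against 7.12, 6.69 and 7.40 in cbp+/-. Its naive and vehicle arrays did not overlap, and neither did those of H4c4 given above. The naive arrays make up the whole of array set 1, so that injection and array set cannot be told apart. The count was 1 without naive replicate 2 of wild type or naive replicate 1 or 2 of cbp+/-, 2 without naive replicate 1 of wild type, 3 without vehicle replicate 3 or 5 of either genotype, and 4 without either replicate 4. Among rows with several symbols, 5 of 6 H4, 5 of 7 H2B and 2 of 2 H2A cluster rows were called higher in vehicle controls, with medians of 1.16, 0.83 and 0.63, while the 10 H3 rows, with a median of 1.04, had a lowest adjusted p of 0.0796 (limma). Of all genes 1.08% were called higher, and these rows share probes, so their calls are not independent. The median over the 24 core genes was 0.29, with 22 of them positive, beside 0.09 for the replacement variants, -0.27 for H1f10 and 0.01 for all genes. Among the variants H3f3a went the other way, at -0.28 ± 0.13. The 4 rows shared by H3f3a and Gm12657 had a median of -0.46, and the 2 shared by H3f3b and Gm6485 one of 0.10, with 0 called.

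The genes that make, process and carry histones were counted from their own lists, in the averaged TSA comparison. Of 27 measured genes for transcription and processing of histone mRNA, 0 passed without the block and 3 with it, where 0.662% and 4.51% of all genes were called. Npat and Hinfp, which activate histone genes in S phase (Hinfp through the H4-specific element), rose by 0.32 ± 0.08 (limma, adjusted p = 0.0187) and 0.19 ± 0.05 (0.0194), and Cpsf2, a subunit of the cleavage machinery, fell by 0.20 ± 0.05 (0.0111). Of 40 histone chaperone and exchange genes, 0 passed without the block and 5 with it. Srcap and Yeats4, subunits of complexes that exchange H2A.Z, fell by 0.29 ± 0.04 (0.000146) and 0.36 ± 0.07 (0.00428), Nap1l3 fell by 0.18 ± 0.04 (0.0174) and Asf1a, an H3-H4 chaperone, rose by 0.24 ± 0.06 (0.0203). The fifth was Ino80, named after its value was seen, which fell by 0.18 ± 0.05 (0.0347).

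Of 39 measured genes of S phase and proliferation, Ccne1 and Cdk2, the cyclin E and kinase that lead into S phase, rose without the block, by 0.44 ± 0.05 (limma, adjusted p = 0.000129) and 0.27 ± 0.05 (0.0143). With the block Ccne2 rose as well, by 0.22 ± 0.06 (0.0277), and Cdc45 fell by 0.12 ± 0.04 (0.0482). The medians of the 3 lists, 0.01, -0.04 and 0.02, stood beside 0.01 over all genes. With novelty and between genotypes, no gene of the 3 lists passed in either fit.

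Other cell types could add transcripts to dissected hippocampus. Choroid plexus markers had a median TSA difference of 0.12 over 18 genes, 17 of them positive, with 1 called (Cdr2, 0.38 ± 0.08, limma, adjusted p = 0.0154), and their mean deviation ran from -0.29 to 1.23 between arrays. Markers of microglia, oligodendrocytes, astrocytes, endothelium and blood had medians from -0.08 to -0.00 without the block, with 0 called in either fit. In that order 4 of 9, 4 of 11, 2 of 9, 0 of 8 and 3 of 6 were positive without the block. With it 2, 1, 2, 1 and 3 were. With the block Mgp, a meningeal and fibroblast marker, and Neurod6, a neuronal marker, fell by 0.31 ± 0.06 (0.00428) and 0.26 ± 0.07 (0.0268). Their lists had medians of -0.03 over 15 genes (7 positive) and -0.00 over 17 (8 positive) in that fit. Of 15 markers of immature neurons and progenitors, Sox11 rose by 0.58 ± 0.07 (0.000129), and with the block Sox4 rose as well, by 0.35 ± 0.07 (0.00512), while 8 of the 15 were positive in each fit, with medians of 0.01 and 0.02. The choroid markers were highest in cbp+/- vehicle control 3 (1.23), replicate 1 of wild-type novelty with TSA and replicate 1 of cbp+/- cage TSA, all in set 2. Without that control H1f5 rose by 0.42 with the block (adjusted p = 0.00187) and the adjusted p of H2bc4 was 0.053. It alone passed a limit of 0.9 above its group mean and was left out. The wild-type and cbp+/- TSA arrays just named, 0.89 and 0.77 above their group means, stayed in. Leaving out this untreated array thus does not take choroid plexus transcripts out of the TSA arrays. The part of other cell types in the remaining values was not tested.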

How the data were processed

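Log2 expression values of 28 Affymetrix Mouse Gene 1.0 ST arrays were used as deposited by the authors. They were normalised with RMA per the submitters' processing notes and handled in GeneSpring GX 11 per the labels' protocols. No build or probe coordinates were used for the expression values, and GRCm38.p6 served only for the promoter windows. RMA quantile-normalises all arrays together, so a shift common to all genes cannot be seen. Array medians lay between 5.46 and 5.63, and the number of arrays limits the precision. Of 35556 rows, 21789 carried 1 gene symbol, 1621 several and 12146 none in the platform annotation. The row with the highest mean stood for each gene.

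The model was fitted in limma 3.58.1 (R 4.3.3) over all arrays, each group having its own mean, with empirical Bayes moderation. P-values were adjusted (Benjamini-Hochberg) over 19938 genes with a threshold of 0.05, two-sided, and the scripts were tested on simulated data. Nothing in the labels says whether replicates were separate litters. The members, classes and lists were chosen with earlier results of these data known. The text names all variants and linkers, every called member, the 4 members with the smallest p per averaged comparison, the brightest core member per family, and up to 4 called genes per other list.

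The 4 array sets are not in the labels and come from an earlier analysis of the same values. Deviations from group means correlated between 0.41 and 0.74 for vehicle controls and treated arrays of 1 set. By label number the correlation was 0.52 to 0.80 among TSA and novelty arrays, but -0.58 to 0.23 between these and controls, so label numbers pair the TSA and novelty arrays with each other and not with the controls. Alternatives covered blocks, weights, normalization, filters, rows per gene and arrays left out.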

Additional observations from a re-analysis of the deposited data

Results flagged for a closer look

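3 values stood apart within a control group of 5 arrays, among 52 such sets of values examined, of which chance alone flags about 1 in 20. All 3 came from control replicate 5, which is in array set 4. H2bc4, the H2B gene called lower with TSA under the array-set block, was 9.28 in cbp+/- control replicate 5, with the nearest of the other arrays at 8.22. H4c9, an H4 gene of the main cluster, was 6.33 in the same array, with the nearest at 5.84. The mean deviation of the 4 cluster linker histones was 0.46 in wild-type control replicate 5, with the nearest at -0.00.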

How the results depend on the processing

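Of 280 recalculated counts and class medians, 260 were classed as unchanged. A class median was so classed when it moved by less than 0.152, the SD between arrays of a group. All 108 class medians met this wide limit, also where the sign changed, so it could hardly fail. A count was so classed when equal or of similar size, and many stayed at 0. Of 181 recalculated single-gene differences, 166 kept sign and call, 13 gained and 2 lost the call, and 0 reversed. The median of core genes minus that of variants with linkers was 0.03 for TSA averaged and has no fixed sign: it was -0.03 with the array-set block or with vehicle controls only, and leaving out 1 array gave -0.00 to 0.05 (-0.07 to -0.01 under the block). These moves are below the SD between arrays of a group, 0.152, which is larger than the TSA difference itself. For novelty the same class difference stayed positive when 1 array was left out without the block. It was 0.09 to 0.17 averaged, and with vehicle 0.16 to 0.31 in wild type and 0.02 to 0.15 in cbp+/-. The cage controls of these comparisons include the naive arrays, in which core genes were lowest. For novelty these omissions were not run under the block. H2aj lost its call with vehicle controls only (adjusted p = 0.0731) and, under the block, without set 2 (0.103). For TSA averaged, where 1 histone gene was called, the count was 3 with the array-set block, 0 with vehicle controls only and 2 with array weights. Under the block it was 2 without set 3 or without cbp+/- vehicle control 3, the untreated array highest in choroid plexus markers. It was 3 under the block without set 4 or without the naive arrays. The block on label numbers, which do not pair controls, gave 7 (6 higher) for TSA averaged, 4 for TSA in wild type in the cage, 1 for any difference among groups and 11 (4 higher) for vehicle against naive controls. It changed no call in the comparisons of TSA within novelty, which the numbers do pair. Any difference among groups, with 0 called, gave 2 with the array-set block, 3 with array weights, and 1 and 2 under the block without set 2 and set 4. Array weights gave 9 for TSA in wild type and 1 in cbp+/- in the cage, and 12 for vehicle against naive controls, where adding rows with several histone symbols gave 12 and all rows with a histone symbol 17. Leaving out 1 array gave 1 to 2 for TSA averaged (2 to 4 under the block), 0 for any difference among groups (1 to 2 under the block), 1 to 4 for vehicle against naive controls and 0 to 0 elsewhere. The cause of these changes was not tested. Settings that leave out arrays or sets under the block, or cbp+/- vehicle control 3, were chosen after the data were seen. So was the one that adds all histone rows. With 3 to 5 pools a group, single backgrounds leave wide intervals, and H3f3a, H1f3 and H3c15 are dim, with means of 3.66, 3.54 and 4.13.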

Other observations

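Between genotypes 0.662% of all genes were called with the array-set block and 0% without it. The 0 calls among the 45 histone genes lie near that share. The 4 genes below are named because they were the called members of the other lists. With the array-set block, Wfs1 and Mpped1, markers of hippocampal pyramidal cells, were lower in cbp+/- by -0.41 ± 0.05 (limma, adjusted p = 0.000343) and -0.17 ± 0.04 (adjusted p = 0.039). Gfap, the astrocyte filament protein, differed by -0.28 ± 0.06 (adjusted p = 0.0127), and Dcn, a meningeal and fibroblast marker, by -0.31 ± 0.04 (adjusted p = 0.000522), in a list whose median was 0.04 with 9 of 15 positive. The astrocyte list had a median of -0.11 with 1 of 9 positive, and the hippocampal neuron list one of -0.04 with 4 of 17 positive. None of these 4 genes passed without the block.

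In the vehicle against naive controls, where 4 H4 genes were higher with vehicle, Supt16, a subunit of the FACT histone chaperone, was lower by -0.42 ± 0.08 (limma, adjusted p = 0.00389), and Cstf2t, a cleavage stimulation factor, by -0.45 ± 0.11 (adjusted p = 0.032). Injection and array set cannot be told apart here either.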
